A study of Mus musculus with 6 samples.

Results

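This report follows 8 genes of the parvalbumin-expressing, fast-spiking interneuron whose expression in the brain is known to depend on the coactivator PGC-1alpha, namely Pvalb, Syt2, Cplx1, Nefh, Inpp5j, Vamp1, Mef2c and Pacsin2. The members were all array probe sets annotated with one of these symbols alone. They numbered 16 of the 45037 probe sets on the array that are not controls, and they covered 7 of the 8 genes. No probe set is named Pacsin2 alone in the annotation used, so that gene was not analysed here. A further probe set shared by Vamp1 and another gene was left out.

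Striatal RNA was profiled on Affymetrix mouse arrays, 1 array per mouse, from 3 PGC-1alpha knockout mice (PGC-1a-/-, here KO) and 3 wild-type littermates (PGC-1a+/+, here WT). All mice were female and 6 months old, and both genotypes came from heterozygous parents. The label of KO 3 names cytoplasmic RNA, whereas the other 5 labels and the study design name total RNA, so counts without KO 3 are given. The KO mice lack PGC-1alpha in the whole body, not in interneurons alone, and the arrays read whole striatum, where fewer interneurons and less transcript per interneuron cannot be told apart.

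Fast-spiking interneurons are a sparse class of striatal GABA neuron that inhibits the spiny projection neurons through synapses around the cell body. They fire at high rates with brief action potentials and release transmitter with little delay, which makes them demanding of energy. PGC-1alpha, encoded by Ppargc1a, is a transcriptional coactivator of oxidative metabolism that is enriched in such neurons. It acts through DNA-bound partners, among them the oestrogen-related receptors, NRF-1 and MEF2 proteins, the family to which Mef2c belongs.

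RefSeq promoter windows on GRCm38.p6, from 250 bases before a transcript start to 50 after it, were found for 6 of the 8 genes, 12 windows in all. The stretches below lie upstream of the annotated Pvalb, Syt2 and Cplx1 genes, written 5′ to 3′ on the gene's strand. Pvalb is shown because it names the cell type, and the other two because the signal of their brightest probe set was lower in every KO mouse than in every WT mouse. They lie at chr15:78206401-78206650 (minus strand), chr1:134646362-134646533 (plus strand) and chr5:108550028-108550277 (minus strand), and capitals mark a match to the motif described next.
Pvalb: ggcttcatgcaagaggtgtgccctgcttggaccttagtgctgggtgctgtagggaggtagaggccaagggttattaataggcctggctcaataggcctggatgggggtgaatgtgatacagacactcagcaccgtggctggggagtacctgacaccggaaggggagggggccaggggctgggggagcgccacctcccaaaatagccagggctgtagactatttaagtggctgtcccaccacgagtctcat
Syt2: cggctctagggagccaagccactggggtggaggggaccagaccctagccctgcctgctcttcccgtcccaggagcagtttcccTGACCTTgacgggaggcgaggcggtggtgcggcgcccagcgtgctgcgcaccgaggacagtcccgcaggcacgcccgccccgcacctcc
Cplx1: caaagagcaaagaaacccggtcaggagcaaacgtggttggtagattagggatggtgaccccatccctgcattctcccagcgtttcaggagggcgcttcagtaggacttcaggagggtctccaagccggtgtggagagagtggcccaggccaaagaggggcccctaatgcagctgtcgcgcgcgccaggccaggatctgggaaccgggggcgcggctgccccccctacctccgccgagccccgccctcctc

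The motif searched, on both strands, was AAGGTCA, the core that oestrogen-related receptors bind. The capitals in the Syt2 stretch are that motif read from the opposite strand, from 167 to 161 bases before a Syt2 start. It was in 3 of the 12 member windows (for Syt2, Mef2c and Pacsin2) and in 4.72% of all 32851 windows. It was not found in the windows of Pvalb, Cplx1 or Vamp1, which says only that these letters are not there.

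Before the members were compared, the genotype labels and the tissue were checked. All 5 Ppargc1a probe sets were lower in every KO mouse than in any WT mouse, by 1.12 to 1.93 on the log2 scale. Markers of spiny projection neurons were bright on all arrays, with Ppp1r1b (DARPP-32) at 3213 to 4745 and the dopamine receptor gene Drd1 at 1704 to 2099. Of 13 tested 0 passed, with a median difference of 0.07 (0.05 without WT 1), and the smallest p were those of the receptor gene Gpr6 (0.30, limma adjusted p = 0.240) and Rasd2 (0.19, adjusted p = 0.610). WT 1 stands apart for the genes described here. It was the highest of all 6 arrays for 12 of the 16 member probe sets and for the brightest probe set of each of the 7 genes, against 17.4% of all probe sets tested. That a WT array is high for Pvalb was known beforehand, so these counts are not independent support. Member differences and list medians are therefore given with and without WT 1.

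None of the member probe sets passed the test between KO and WT striatum, and 15 of the 16 had a mean difference below 0. Values are signals on a linear scale, and differences are KO minus WT of log2(signal + 16). At an adjusted p under 0.05 in limma, 0 of the 16 member probe sets were called, where 0.47% of all 27022 tested were called. The number with an unadjusted p under 0.05 and a lower signal in KO was 6 of 16, against 5.06% of all, and it was 0 of 16 for a higher signal, against 4.11%. In 4 of 16 the 3 KO mice all lay below the 3 WT mice, against 7.88% of all. A difference below 0 was seen in 51.1% of all probe sets tested. Probe sets of the same gene are not independent, and all Cplx1 probe sets were in both counts of lower signal. The members were chosen with earlier results of these data known, so the member counts are not independent support. Over the brightest probe set of each gene, all 7 were below 0. Of these, 4 of 7 had an unadjusted p under 0.05 in limma, and in 2 of 7 the groups did not overlap. Over the brightest probe set of each of the 7 genes the median difference was -0.34, against -0.0046 over all probe sets tested. Without WT 1 that median was -0.14, and 11 of the 16 probe sets were lower. In that comparison 3 of 16 had an unadjusted p under 0.05 and a lower signal in KO, against 4.8% of all, and 0 were called, against 0.377%. Among the brightest probe sets, 2 of 7 had such a p and a lower signal. Without KO 3 the median was -0.33, and 3 of 16 were lower at an unadjusted p under 0.05 (2 of 7 of the brightest), against 4.98% of all.

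**Figure D1:**
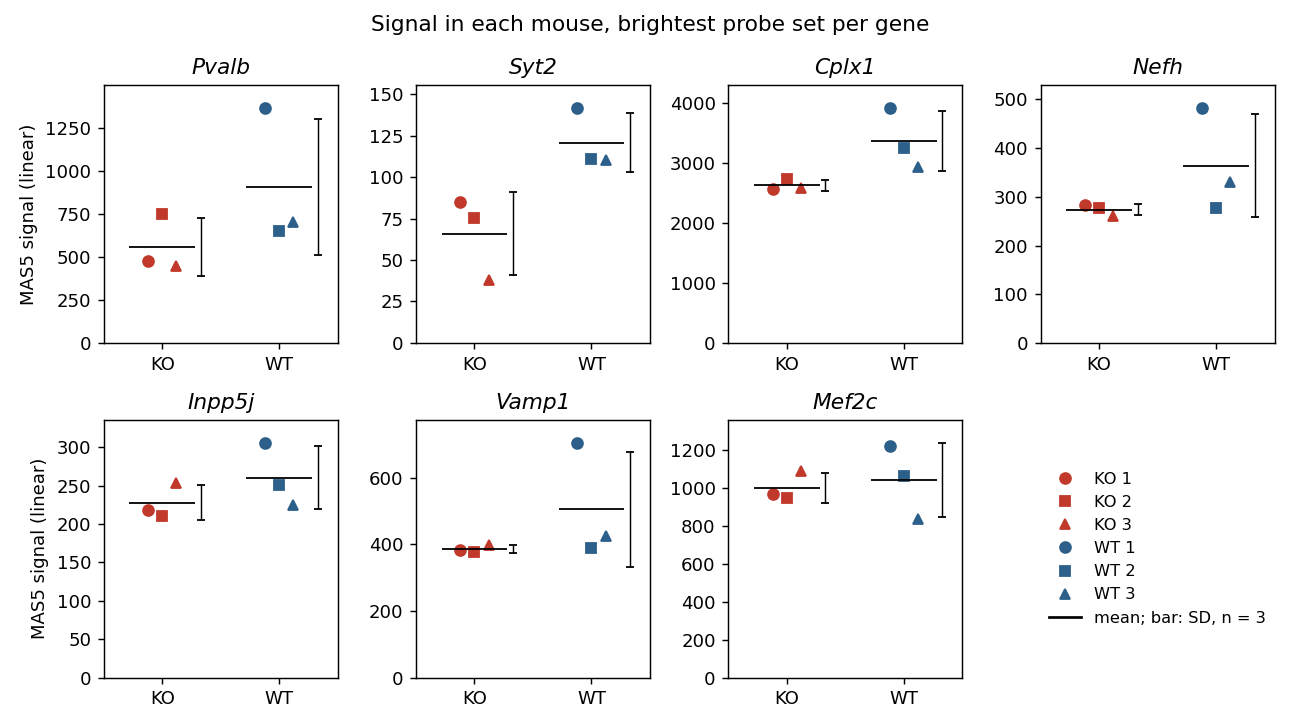
Linear MAS5 signal in each KO (red) and WT (blue) mouse for the brightest probe set of each of the 7 genes measured, with the group mean (line) and SD (bar, n = 3). WT 1 is the highest mouse in every panel, and KO and WT do not overlap for Syt2 and Cplx1.

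Pvalb encodes parvalbumin, the calcium buffer that defines the cell type. Its only probe set (1417653_at) read 475.5, 747.9 and 444.0 in KO mice 1 to 3 and 1362.4, 651.8 and 701.1 in WT mice 1 to 3. The groups overlapped, because KO 2 lay above WT 2 and WT 3, and WT 1 was 2.09 times the lowest WT mouse. The mean signal was 556 ± 167 for the KO mice and 905 ± 397 for the WT mice (SD, n = 3). The difference was -0.64 (SE 0.24, 95% interval -1.17 to -0.12), which is 36.0% lower on the scale of signal + 16, with a limma adjusted p of 0.408 and an exact permutation p of 0.3 (two-sided). Without WT 1 it was -0.31, with an interval of -0.70 to 0.08 that includes 0. Without KO 3, the lowest mouse, it was -0.51 (limma adjusted p = 0.648).

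Syt2, Cplx1 and Vamp1 act in transmitter release. Syt2 encodes synaptotagmin 2, the calcium sensor for fast release at these synapses. Its brightest probe set (1440323_at) read 85.1, 75.1 and 37.7 in KO mice 1 to 3 and 141.5, 111.0 and 110.1 in WT mice 1 to 3. Every KO mouse lay below every WT mouse, and KO 3 was the lowest. The difference was -0.78 (SE 0.22, 95% interval -1.26 to -0.31), which is 41.9% lower on the scale of signal + 16, with a limma adjusted p of 0.226. The exact permutation p was 0.1, the smallest that 3 mice against 3 allow. Without WT 1 the Syt2 difference was -0.68 and without KO 3 it was -0.50, and neither passed. The other Syt2 probe sets, 1420418_at and 1449866_at, read between 40.9 and 74.9 on all arrays, gave -0.02 and 0.17, and overlapped between groups. The gene's probe sets therefore did not show 1 direction.

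Cplx1 encodes complexin 1, which clamps and speeds SNARE-driven vesicle fusion, and its 3 probe sets gave the same direction. The brightest (1448832_a_at) read 2572.4, 2741.4 and 2593.6 in KO mice 1 to 3 and 3917.6, 3258.9 and 2937.7 in WT mice 1 to 3. The groups did not overlap, and the KO mice differed by less among themselves than the WT mice did. The difference was -0.34 (SE 0.09, 95% interval -0.55 to -0.14), which is 21.2% lower on the scale of signal + 16, with a limma adjusted p of 0.202 and an exact permutation p of 0.1. The other Cplx1 probe sets gave -0.34 (1417746_at, adjusted p = 0.120) and -0.28 (1417747_at, adjusted p = 0.463), also with no overlap. Without WT 1 the 3 differences were -0.23, -0.27 and -0.13. Leaving out any 1 array kept all 3 below 0.

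Vamp1 encodes synaptobrevin 1, a vesicle SNARE of fast-firing neurons. Its brightest probe set (1421863_at) read 384.4, 376.7 and 398.9 in KO mice 1 to 3 and 704.4, 390.2 and 424.1 in WT mice 1 to 3. WT 1 stood far above the other 5 mice, and WT 2 lay inside the KO range. The difference was -0.33 (SE 0.17, 95% interval -0.69 to 0.04; limma adjusted p = 0.606), and without WT 1 it was -0.07. The dimmer Vamp1 probe set (1421862_a_at) read 94.2 in WT 1 and between 37.8 and 50.6 in the other 5 mice. Its difference was -0.14, and 0.19 without WT 1.

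Nefh encodes the heavy neurofilament subunit of large, fast-conducting axons. Its probe set (1424847_at) read 283.4, 276.5 and 261.1 in KO mice 1 to 3 and 481.6, 277.4 and 331.4 in WT mice 1 to 3. WT 1 was again the highest, and WT 2 lay between KO 1 and KO 2. The difference was -0.35 (SE 0.16, 95% interval -0.69 to -0.01; limma adjusted p = 0.509; exact permutation p = 0.2). Without WT 1 it was -0.14 (95% interval -0.40 to 0.11).

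Inpp5j encodes an inositol polyphosphate 5-phosphatase. Its probe set (1433941_at) read 218.8, 211.0 and 253.8 in KO mice 1 to 3 and 305.4, 251.0 and 225.0 in WT mice 1 to 3, with KO 3 above WT 2 and WT 3. The difference was -0.17 (SE 0.13, 95% interval -0.45 to 0.10; limma adjusted p = 0.732), and -0.06 without WT 1. Mef2c encodes a transcription factor that spiny and cortical neurons also express. Its brightest probe set (1424852_at) read 968.6, 947.3 and 1093.3 in KO mice 1 to 3 and 1226.3, 1065.5 and 836.4 in WT mice 1 to 3. The groups overlapped widely, the lowest mouse being WT 3. The difference was -0.04 (SE 0.12, 95% interval -0.30 to 0.22; limma adjusted p = 0.955). It was 0.08 without WT 1 and 0.0033 after centring arrays on their medians, so no direction can be given for Mef2c. The other 4 Mef2c probe sets ran from -0.20 to -0.01 and all overlapped.

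**Figure D2:**
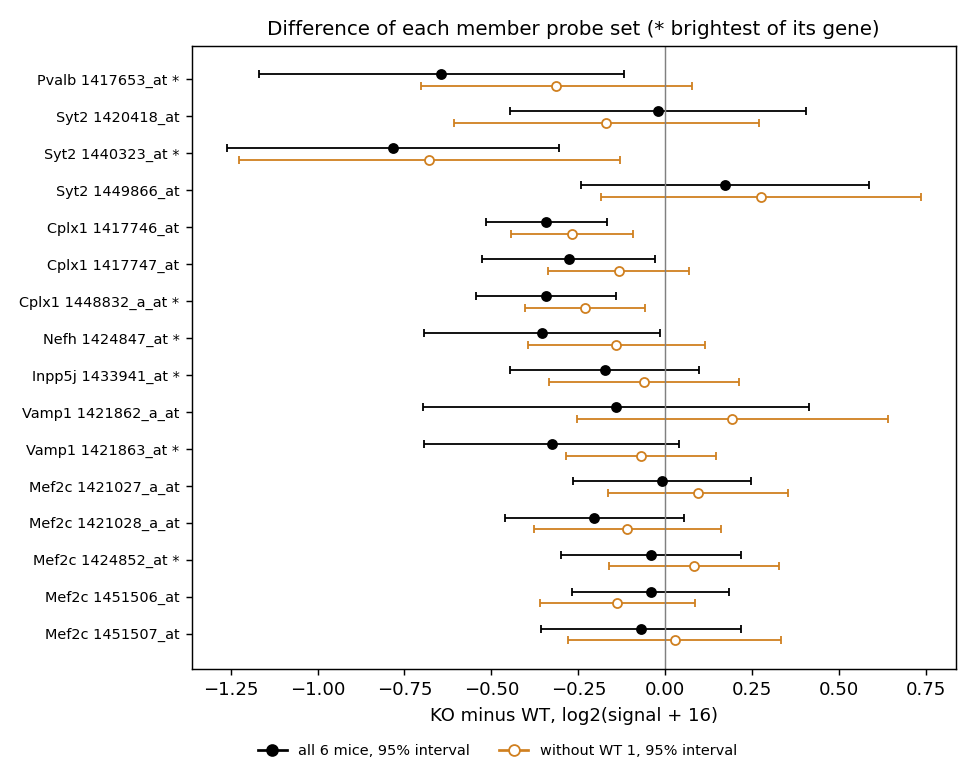
KO minus WT difference of log2(signal + 16) for each of the 16 member probe sets, with 95% intervals from limma, for all 6 mice (filled) and without WT 1 (open). The differences of Pvalb, Nefh and the brighter Vamp1 probe set move toward 0 without WT 1, while those of the brightest Syt2 and Cplx1 probe sets keep intervals below 0.

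WT 1 exceeded the mean of WT 2 and WT 3 by 0.99 on the log2 scale for Pvalb, 0.77 for Vamp1, 0.64 for Nefh and 0.32 to 0.37 for Syt2, Cplx1, Inpp5j and Mef2c. The members' median, relative to the WT mean, was 0.25 in WT 1, -0.10 in WT 2 and -0.19 in WT 3. In KO mice 1 to 3 it was -0.33, -0.29 and -0.37. The KO mice therefore lay below each WT mouse, but the distance from WT 2 and WT 3 was smaller than that between WT 1 and the other WT mice.

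Markers of neighbouring regions also varied between mice. Several members are also expressed outside the striatum, and parvalbumin neurons are common in the globus pallidus and the reticular thalamus. Of 12 listed markers of pallidum, thalamus and septum, 9 were tested and none was at 0 on all arrays. The 9 were all higher in KO, with a median difference of 0.49 (0.89 without WT 1 and 0.12 without WT 2, with 1 of 9 then lower), and 0 passed. Signals summed over the list ran from 2621 to 3230 in KO mice and from 1210 to 3244 in WT mice, with WT 2 the lowest. Nkx2-1 and Npas1, transcription factors of pallidal neurons, were too dim to be tested, with means of 20.4 and 13.4 in KO and 10.1 and 14.9 in WT. Slc17a6, the vesicular glutamate transporter of thalamic neurons, read 337.9, 312.1 and 267.1 in KO mice 1 to 3 and 432.6, 78.4 and 177.5 in WT mice 1 to 3. WT 1 was thus high for this marker as for the members, but the KO mice, low for the members, were above WT 2 and WT 3. Tcf7l2, a transcription factor of thalamic neurons, differed by 0.87 (limma adjusted p = 0.338) and passed without WT 1 (1.30, adjusted p = 0.0173). Zic1, a transcription factor of the septum and thalamus, differed by 0.74 (adjusted p = 0.416), and by 0.28 without WT 2. The part of these regions in the members' values was not tested.

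Markers of cortical excitatory neurons gave sums of 1988 to 2548 in KO and 1860 to 2532 in WT over 10 genes with a probe set, none of them at 0. Their median difference was -0.19 (-0.03 without WT 1), and 0 of 10 passed. Fezf2, a factor of deep-layer neurons, gave -0.57 (-0.45 without WT 1 and -0.35 without KO 1) and Neurod2 -0.35 (between -0.62 and -0.21 without 1 array). Oligodendrocyte markers summed to 28300 to 29390 in KO and 27840 to 33850 in WT, and WT 1 was the highest array for 6 of the 9 tested. Their median difference was -0.18 (-0.08 without WT 1), and 0 of 9 passed. Mag, a myelin adhesion protein, gave -0.43 and Mal, a myelin proteolipid, 0.37 (limma adjusted p = 0.109 and 0.195), and -0.33 and 0.47 without WT 1. The part of these cell types was not tested either.

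Of 16 other genes of fast-spiking interneurons tested, 4 were lower in KO and 12 higher, with a median difference of 0.03 (0.10 without WT 1), and 0 passed. Without WT 2 the median was -0.08 and 11 of the 16 were lower, so no direction can be given for this list. The 2 with the smallest p were Kcnc1, the Kv3.1 channel subunit that shortens action potentials (-0.34, limma adjusted p = 0.490), and Hapln4, a link protein of perineuronal nets (-0.58, adjusted p = 0.470). Without WT 1 they gave -0.18 and -0.29. WT 1 was the highest array for 10 of the 16, so this list shared the high values of WT 1. Its median was 0.26 in WT 1, -0.27 in WT 2 and -0.07 in WT 3 relative to the WT mean, and -0.04, 0.17 and -0.03 in KO mice 1 to 3, inside the WT range. Lhx6 and Sox6, transcription factors that interneurons keep from development, gave 0.21 and 0.05, and -0.03 and 0.06 without WT 1. The inhibitory transmitter genes tested, shared with the spiny neurons, were Gad1, Gad2, Slc32a1 and Abat, together with the developmental genes Dlx1, Dlx2 and Dlx6os1. They had a median of 0.01 over 7 tested (-0.11 without WT 1, with all 7 then lower), and 0 passed. Gad1 gave -0.10 and Abat, which breaks GABA down, -0.16 (-0.08 without KO 3). Markers of other striatal interneurons had a median of 0.09 over 9 tested (0.18 without WT 1), and 0 passed. The 2 with the smallest p were Th (0.49, limma adjusted p = 0.421, and 0.54 without WT 1) and Chodl (0.41, adjusted p = 0.673, and 0.27 without WT 1). Both were dim, at 37.7 to 80.8 for Th and 16.3 to 44.6 for Chodl over all mice.

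Other neuronal genes known to depend on PGC-1alpha were lower in all 6 tested, against 51.1% of all probe sets. Their median was -0.21 (-0.17 without WT 1), and 1 was called, against 0.47% of all. This list was chosen with earlier results of these data known, so its counts are not independent support. The gene called was Phyh, the peroxisomal phytanoyl-CoA hydroxylase. Phyh read 220.6, 173.6 and 200.6 in KO mice 1 to 3 and 402.1, 400.2 and 445.2 in WT mice 1 to 3. It fell by 1.02 (SE 0.11, limma adjusted p = 7.86e-04), and by 1.04 without WT 1 (adjusted p = 0.00496). WT 1 was not high for Phyh. The other 5 (Idh3a, Atp5o, Atp5a1, Esrra and Acadm) gave -0.24 to -0.17 and did not pass.

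The closest relatives of the members, and the shared release machinery, were also examined. Of 23 relatives tested, 12 were lower and 11 higher, with a median of -0.02 (-0.04 without WT 1), and 0 passed. Syt1, the main calcium sensor of forebrain synapses, gave 0.08, Cplx2 -0.02 and Vamp2 -0.10. The neurofilament subunits Nefm and Nefl gave -0.23 and -0.14, and -0.10 and -0.04 without WT 1. Mef2a (-0.28) and Vamp4 (0.17) had the smallest p. Of 20 release genes tested, 8 were lower and 12 higher, with a median of 0.04 (0.02 without WT 1), and 0 passed. Rab3a, a vesicle GTPase, gave 0.75 (adjusted p = 0.109) and passed without WT 2 (0.96, adjusted p = 0.0256), and Sv2c gave 0.49.

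**Figure D3:**
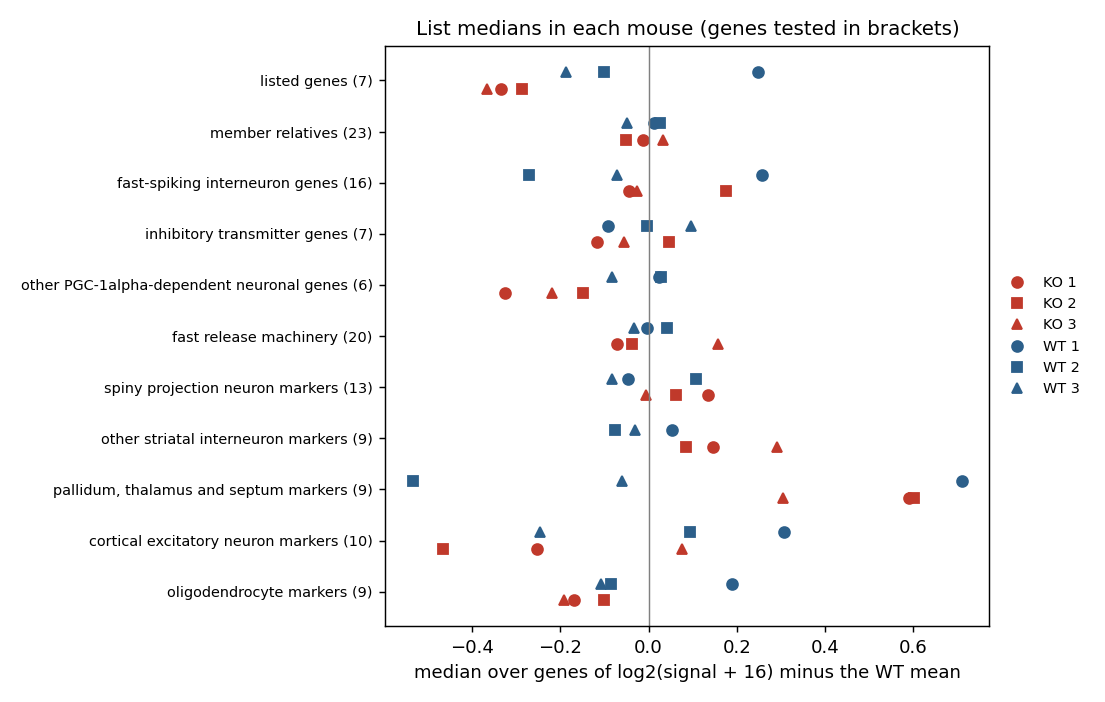
Median over the tested genes of each list of log2(signal + 16) minus the WT mean, in each KO (red) and WT (blue) mouse. For the listed genes the KO mice lie between -0.37 and -0.29, below all WT mice, and WT 1 is the highest WT mouse for those genes and, among others, for the fast-spiking, regional, cortical and oligodendrocyte lists.

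The genes whose pattern over the 6 arrays was most like that of Pvalb were found by the root mean square difference between log2 profiles, each centred on its own mean, among 22670 probe sets. They were Elk4 (0.15), Hapln4 (0.17), Tnfrsf11a (0.19), Ppp1r3e (0.20) and Med12l (0.20). Hapln4 read 49.8, 83.5 and 67.6 in KO mice 1 to 3 and 164.9, 75.8 and 93.2 in WT mice 1 to 3, with WT 1 high and KO 2 the highest KO mouse, as for Pvalb. The probe sets of the other 4 were dim, between 17.1 and 98.2 over all mice. Among the members, Nefh ranked 55 (0.29) and the brighter Vamp1 probe set 74 (0.30), followed by the Cplx1 probe sets at 151 to 277. The brightest Syt2 probe set ranked 317 and the dimmer Vamp1 probe set 358. The rest were far less like Pvalb, with Inpp5j at 2049, the Mef2c probe sets at 1721 to 16741 and the other Syt2 probe sets at 4932 and 17964. As the share of probe sets closer to Pvalb, Nefh stood at 0.24% and the Vamp1 probe sets at 0.32% and 1.6%. The Cplx1 probe sets stood at 0.66% to 1.2% and the brightest Syt2 probe set at 1.4%. Inpp5j stood at 9.0%, the Mef2c probe sets at 7.6% to 73.8% and the other Syt2 probe sets at 21.75% and 79.24%. Some members were thus among the probe sets most like Pvalb, and others were not. Such ranks describe these 6 arrays only, since a single high mouse weighs heavily in them.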

How the data were processed

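The authors' deposited table holds MAS5 intensity values (per the submitters' processing notes), linear and not log-transformed, with a column for each mouse. The sources used here do not give the software's version or settings. Array medians ran from 43.1 to 47.3 and the mean without the lowest and highest 2% was equal, so a change is measured against the rest of its array. Control probe sets were left out. Genes were named from the platform annotation (34958 probe sets with 1 symbol, 932 with several), with 34754 matched to GRCm38.p6 by gene number.

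Signals were taken as log2(signal + 16), which makes changes of dim transcripts look smaller. The dimmest were left out by a cutoff on the mean over the 6 arrays (the 40th percentile, a signal of 26.8), and all 16 member probe sets passed. KO was compared with WT by limma 3.58.1 in R 4.3.3 (lmFit, eBayes with an intensity trend) with Benjamini-Hochberg adjustment over 27022 probe sets. Single values had a two-sided exact permutation test. The members and lists were chosen with earlier results of these data known. Named are all member probe sets, each list's called genes or the 2 with the smallest p, and the 5 nearest to Pvalb. Other list members named were chosen after their values were seen. In a list each gene entered by its brightest tested probe set. The procedure was also tested on simulated data. The 3 arrays per group limit the precision of each value, and the alternatives tried are named in the closing section.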

Additional observations from a re-analysis of the deposited data

How the results depend on the processing

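No member probe set was called in limma under any alternative run (quantile normalization, centring, offsets of 1 and 64, no filter, a filter at the 60th percentile, no trend, robust estimation, replicate block, adjusted p under 0.1, or leaving out each array). The lowest adjusted p among brightest probe sets was 0.0671, for Cplx1. Leaving out 1 array gave -0.87 to -0.31 for Pvalb, -0.96 to -0.50 for Syt2, -0.44 to -0.23 for Cplx1, -0.52 to -0.14 for Nefh, -0.27 to -0.06 for Inpp5j, -0.48 to -0.07 for Vamp1 and -0.19 to 0.083 for Mef2c. The highest value came without WT 1 for these genes except Syt2, where it came without KO 3. The mean over its probe sets gave -0.21 for Syt2 and -0.23 for Vamp1.

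Among the members, reversals were seen for Mef2c, a dim Syt2 probe set and the dimmer Vamp1 probe set. Of the 122 genes tested in the other lists, 12 turned sign without WT 1, none of them called. The median of the inhibitory transmitter genes, 0.01, turned negative whichever array was left out, and was -0.11 without WT 1. That of the fast-spiking genes turned from 0.03 to -0.08 without WT 2 and to -0.03 without KO 2. The release genes turned from 0.04 to -0.03 without KO 3 and to -0.02 without WT 3. The relatives turned from -0.02 to 0.02 without KO 2 and also without WT 2. The spiny projection neuron markers turned from 0.07 to -0.01 without WT 3. Centring arrays on their medians gave 0.0033 for the brightest Mef2c probe set, 0.034 for 1421027_a_at, 0.0022 for 1451506_at and 0.023 for Syt2 1420418_at, which gave 0.012 after quantile normalization. Leaving out 1 array gave -0.13 to 0.095 for Mef2c 1421027_a_at, -0.14 to 0.024 for 1451506_at, -0.20 to 0.027 for 1451507_at, -0.17 to 0.13 for Syt2 1420418_at and -0.32 to 0.19 for Vamp1 1421862_a_at.

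Over all probe sets 127 were called, 52 with no filter, 25 without the trend, 194 at an adjusted p under 0.1 and 65 to 102 without 1 array. The cause was not tested. Same-numbered KO and WT mice did not deviate together over all probe sets tested (correlations of -0.009, -0.035 and 0.017). With so few mice, whether the numbers pair them cannot be told from this. A replicate block gave 100 calls over all probe sets, 0 member calls and a Pvalb adjusted p of 0.418, and Rab3a then passed (adjusted p = 0.00414).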
